A study of Homo sapiens with 4 samples.

Results

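The 78 genes described here carry the symbols of mitochondrial ribosomal proteins, which all but MRPS36 encode. They are all the rows of the deposited table whose symbol is MRPL or MRPS followed by a number and, in some, a letter from A to C, and they are 78 of 38972 genes. By symbol, 49 are MRPL genes, named for the large subunit, and 29 are MRPS genes, named for the small subunit. RNA was sequenced from HEK293T cells, an established human embryonic kidney line, in 2 libraries from cells overexpressing Flag, an epitope tag used as control (oeFlag), and 2 from cells overexpressing RNase H1 (oeRNH1), a nuclease that removes RNA paired with DNA. The labels name no other allele, agent or time and do not say how the proteins were overexpressed or whether replicates came from separate cultures. P-values therefore measure only the spread between these libraries, which may be technical.

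The mitochondrial ribosome translates the few messenger RNAs encoded by mitochondrial DNA, all of them for subunits of the respiratory chain and ATP synthase. Its ribosomal RNAs come from mitochondrial DNA, whereas its proteins are encoded in the nucleus, made in the cytosol and imported. Some of these proteins have relatives in bacterial ribosomes and others have no counterpart there. The large subunit joins amino acids and holds the exit tunnel for the new protein, and the small subunit reads the messenger RNA.

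Values are TPM, each transcript's share of its library scaled to a common total and corrected for length, so levels can be set side by side between genes, while the amount of RNA in a cell is not measured. The depth is unknown, since TPM keeps no read counts. RNASEH1, the gene for RNase H1, had 32.09 and 32.8 TPM under the Flag label and 29.93 and 29.67 TPM under the RNase H1 label. Its log2 fold change was -0.12 ± 0.06 (SE, limma adjusted p = 0.260), so overexpression is not seen in the level of RNASEH1, and libraries are named by their labels throughout. All 7 genes used as marks of this line, among them IRS4 and LIN28B, had a mean of at least 1 TPM. Their summed level was 358.11 and 356.77 TPM under the Flag label and 229.25 and 214.72 TPM under the RNase H1 label. Most of this gap was IRS4, at 216.94 and 217.96 TPM against 106.57 and 99.86 TPM. LIN28B and NEFM were lower as well, PAX2, LHX1 and SALL2 overlapped between groups, and EYA1 was higher, at 4.9 and 4.51 TPM against 6.2 and 5.44 TPM. The part of these differences in the results below was not tested. Of 5 markers each, a mean of 1 TPM was reached by 1 fibroblast, 2 leukocyte, 1 hepatocyte and 0 squamous epithelium genes. The hepatocyte genes TTR, SERPINA1 and APOH were listed at 0 in every library, and APOA1 lay between 0.24 and 0.49 TPM. ALB, the hepatocyte gene that reached 1 TPM, stood at 0.23 and 0.62 TPM under the Flag label. Under the RNase H1 label it stood at 1.51 and 2.05 TPM.

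All 78 genes reached the minimum mean of 1 TPM and were tested. Together they made up 0.795% of all TPM in the libraries labelled Flag and 0.755% in those labelled RNase H1. Mean levels ran from 12.9 TPM for MRPL57 to 347 TPM for MRPL51, a 26.9-fold range, and 58 genes lay between 50 and 150 TPM. MRPL51, a protein of the large subunit with no bacterial counterpart, stood at 349.79 and 338.47 TPM under the Flag label and at 349.54 and 351.49 TPM under the RNase H1 label. MRPL57, the lowest, was even between libraries, at 12.95 and 12.94 TPM and at 12.91 and 12.88 TPM. The groups of MRPL57 do not overlap, yet its difference is far below its standard error (log2 -0.01 ± 0.08). Among MRPS genes the range was narrower, 6.66-fold, from MRPS17 at 36.5 TPM to MRPS33 at 243 TPM.

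No member was called higher, and 6 were called lower. A call is an adjusted p under 0.05 in limma, a linear model with moderated variances fitted to log2(TPM + 1) of all 15651 tested genes. The 6 called lower are 7.69% of the 78 genes, a share near the 5.54% of all tested genes called lower. The 0 called higher stand against 6.30% of all tested genes called higher, and in either direction 11.8% of all tested genes were called. At an unadjusted p under 0.05, 2 of the 78 members were higher, MRPL27 and MRPL47, and 19 were lower. At that threshold 2536 of all 15651 tested genes were higher and 2370 lower. The 6 genes called lower were MRPL24, MRPL23, MRPL12, MRPL19, MRPL11 and MRPS24, and all 6 belong to the proteins with bacterial counterparts. Among members that class holds 30 of 51 large-subunit and 16 of 26 small-subunit proteins. Without any 1 of the 4 libraries nearly all calls over all tested genes were lost, those of members among them. In these fits the lone library of a group is assumed to vary like the others. The 6 genes kept their direction.

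**Figure D1:**
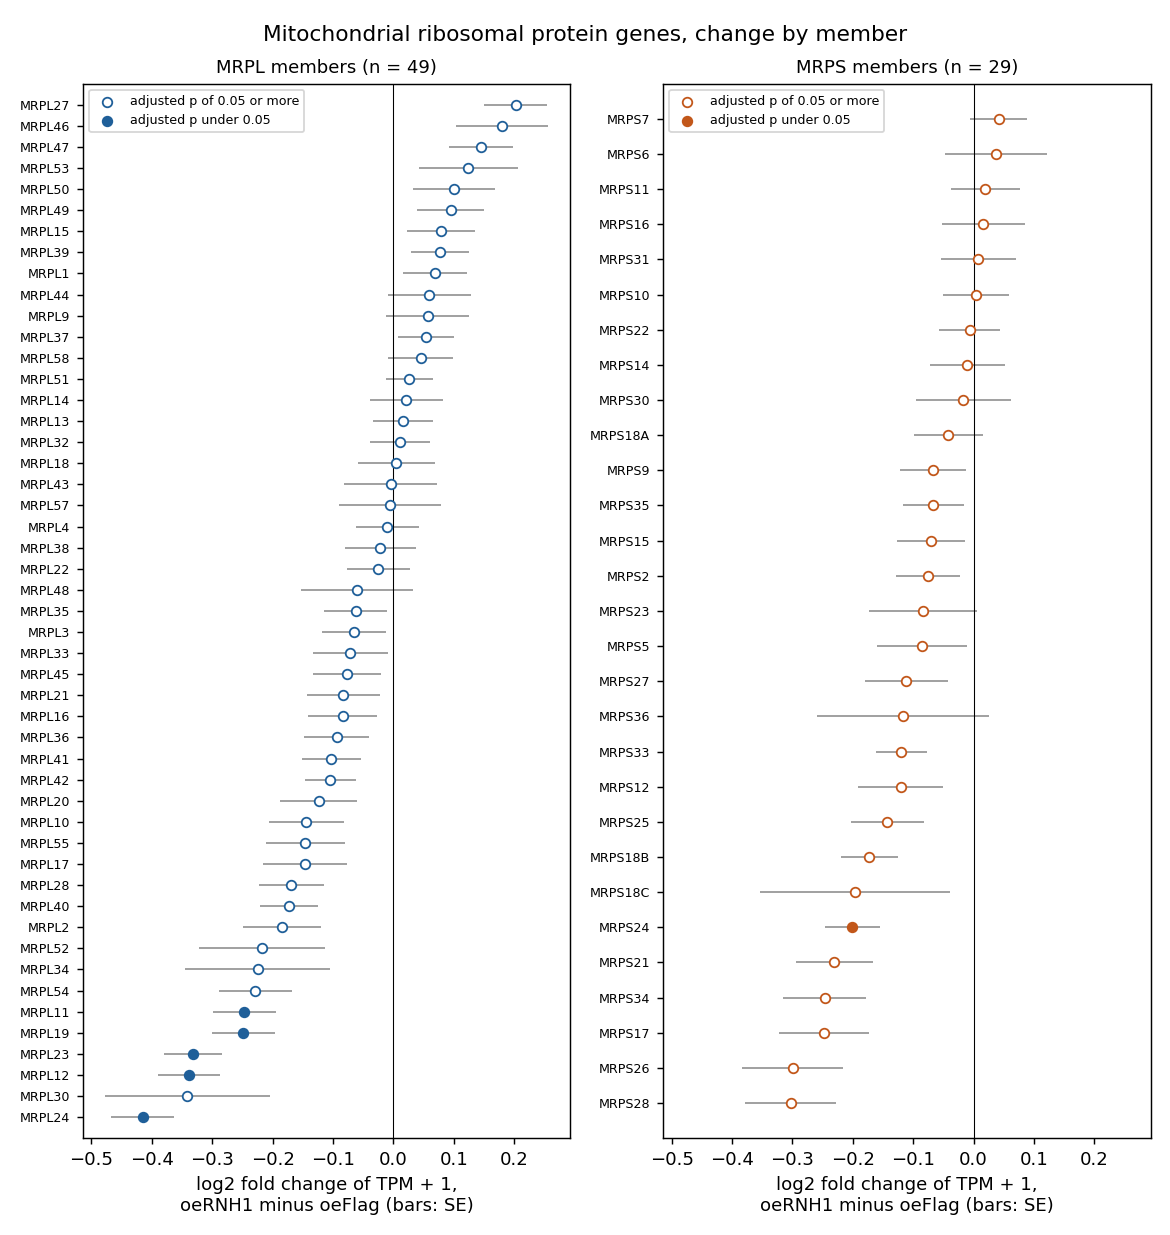
Log2 fold change of TPM + 1 (horizontal axis, libraries labelled RNase H1 minus those labelled Flag, bars give the SE) of each of 49 MRPL and 29 MRPS genes, ranked within each group; filled points have an adjusted p under 0.05. All 6 filled points, 5 MRPL and 1 MRPS, lie left of 0, and 31 MRPL and 23 MRPS genes have negative values.

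MRPL24 had the largest change. It is a relative of a bacterial protein that lies near the polypeptide exit tunnel (chromosome 1, 156737303 to 156741590, minus strand, GRCh38 coordinates of GENCODE release 29). Its values were 124.35 and 129.75 TPM under the Flag label and 97.27 and 92.78 TPM under the RNase H1 label. Both libraries labelled RNase H1 lie well below both labelled Flag, with means of 127 ± 3.82 and 95.03 ± 3.17 TPM (SD, n = 2). The log2 fold change was -0.42 ± 0.05 (SE), with a 95% interval from -0.54 to -0.29 and a limma adjusted p of 0.0130.

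MRPL23 is another relative of a protein of the tunnel exit (chromosome 11, 1947278 to 1984522, plus strand). It stood at 141.06 and 148.04 TPM under the Flag label and at 113.74 and 115.53 TPM under the RNase H1 label. Its groups do not overlap, and it fell by 0.33 on the log2 scale (SE 0.05, limma adjusted p = 0.0175). MRPL23-AS1, an antisense gene whose exons overlap 2.86% of the MRPL23 exon length, had a mean of only 0.545 TPM.

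MRPL12 and MRPL11 belong to the stalk of the large subunit and its base, where translation factors bind. MRPL12 (chromosome 17, 81703357 to 81707526, plus strand) stood at 118.32 and 125.7 TPM under the Flag label and at 96.2 and 96.26 TPM under the RNase H1 label. It fell by 0.34 (SE 0.05, limma adjusted p = 0.0193), with no overlap between groups. A readthrough gene, ENSG00000262660, covers 68.2% of the MRPL12 exon length and was listed at 0 in the table, so how reads were divided between them is uncertain. After correction for GC content the log2 fold change of MRPL12 was -0.22 (adjusted p = 0.0449), and with transcript length corrected as well the call was lost (adjusted p = 0.0505). MRPL11 (chromosome 11, 66435075 to 66466738, minus strand) stood at 91.29 and 87.7 TPM against 74.13 and 76.41 TPM, again without overlap. It fell by 0.25 (SE 0.05, limma adjusted p = 0.0376).

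MRPL19, a relative of a bacterial large-subunit protein (chromosome 2, 75646783 to 75690851, plus strand), stood at 76.8 and 78.34 TPM under the Flag label and at 66.18 and 64.12 TPM under the RNase H1 label. It fell by 0.25 (SE 0.05, limma adjusted p = 0.0372). MRPS24, whose bacterial relative sits where the messenger RNA enters the small subunit, was the only MRPS gene called (chromosome 7, 43866558 to 43869893, minus strand). It stood at 196.91 and 199.07 TPM under the Flag label and at 167.91 and 176.49 TPM under the RNase H1 label, and fell by 0.20 (SE 0.05, limma adjusted p = 0.0426). Its readthrough gene URGCP-MRPS24 shares 23.2% of the MRPS24 exon length at a mean of 0.698 TPM.

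**Figure D2:**
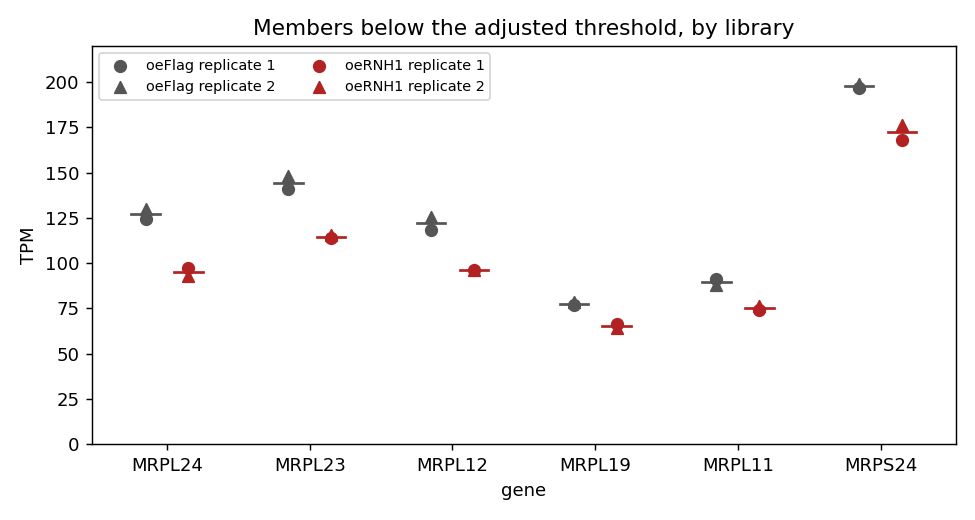
TPM (vertical axis, from 0) in each library for the 6 genes called lower; circles are replicate 1, triangles replicate 2, and short lines the group means. In every gene both libraries labelled RNase H1 lie below both labelled Flag, with the widest relative gap in MRPL24 (127 against 95.03 TPM).

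Members just short of the threshold were mostly lower too. MRPS28, a small-subunit protein, was nearest, at 128.15 and 119.81 TPM under the Flag label and 107.01 and 93.92 TPM under the RNase H1 label (log2 -0.30 ± 0.07, adjusted p = 0.0524). Among MRPL genes the nearest was higher. MRPL27, the relative of a bacterial protein that reaches the peptidyl transferase centre, stood at 109.5 and 102.71 TPM against 123.42 and 120.95 TPM (log2 0.20 ± 0.05, adjusted p = 0.0575). MRPL54 (-0.23 ± 0.06, adjusted p = 0.0609) and MRPL40 (-0.17 ± 0.05, adjusted p = 0.0693), both without a bacterial counterpart, followed on the lower side. MRPL28 and MRPL2, both with bacterial relatives, had log2 fold changes of -0.17 ± 0.05 and -0.18 ± 0.06. Neither passed, with adjusted p of 0.0923 and 0.113.

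Among MRPS genes, MRPS18B, MRPS26, MRPS34, MRPS21 and MRPS17 had log2 fold changes between -0.30 and -0.17 and adjusted p between 0.0675 and 0.0816. Their groups do not overlap, though these genes were named for a small p. Lower values without overlap were found in 29.4% of all tested genes. MRPS34, a protein needed for a stable small subunit, stood at 87.4 and 98.41 TPM under the Flag label and at 79.05 and 76.98 TPM under the RNase H1 label. MRPS33 (-0.12 ± 0.04) and MRPS25 (-0.14 ± 0.06), both without a bacterial counterpart, were lower without overlap at adjusted p of 0.116 and 0.169. MRPS12, the relative of a bacterial protein of the decoding centre, stood at 47.52 and 46.6 TPM against 41.07 and 45.45 TPM (adjusted p = 0.296).

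Values of both subunits leaned to the lower side by small amounts, with no gene of either called higher. The median log2 fold change was -0.06 over 49 MRPL genes and -0.08 over 29 MRPS genes, beside 0.0035 over all tested genes. Of MRPL genes 0 were called higher, 5 lower and 44 not called, and of MRPS genes 0 higher, 1 lower and 28 not called. Beside them, 6.30% of all tested genes were called higher and 5.54% lower. The groups did not overlap on the lower side in 23 MRPL and 15 MRPS genes, together 48.7% of the 78, against 29.4% of all tested genes. On the higher side this held for 9 MRPL genes and 1 MRPS gene, together 12.8%, against 31.3% of all tested genes. The single MRPS gene was MRPS7, at 126.35 and 121.54 TPM against 126.94 and 128.18 TPM (log2 0.04 ± 0.05).

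Changes were small in size. A difference of less than 0.1 on the log2 scale was found in 53.8% of members and in 31.95% of all tested genes. A difference of at least 0.25 was found in 6 members, 7.69%, and in 33.3% of all tested genes, of which many have lower levels and wider errors. These 6 are not the 6 called genes. They are MRPL24, MRPL23 and MRPL12, which were called, and MRPL30, MRPS28 and MRPS26, which were not. MRPL19 (-0.248) and MRPL11 (-0.247) fell just short of this size. The median standard error was 0.06 over members and 0.10 over all tested genes. The ratio of group means lay between 0.748 and 1.15 over all 78 genes. Cytosolic ribosomal proteins had 30.6% of 85 tested genes lower and 35.3% higher without overlap, 1 called lower and 6 higher, and a median of -0.01. The difference from the mitochondrial set was not tested.

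**Figure D3:**
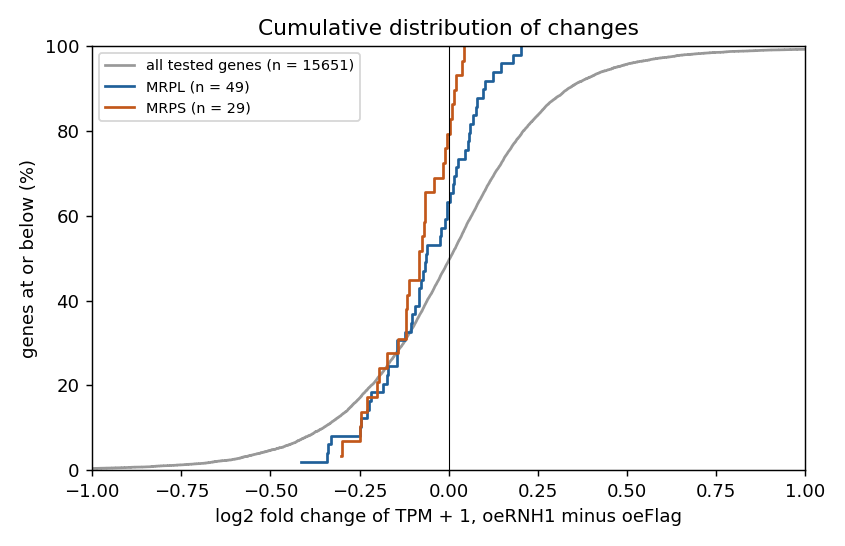
Cumulative share of genes (vertical axis, percent) at or below each log2 fold change of TPM + 1 (horizontal axis, libraries labelled RNase H1 minus those labelled Flag) for all 15651 tested genes, 49 MRPL and 29 MRPS genes; the axis is cut at -1 and 1. Both member curves are steeper than that of all genes and cross 50% left of 0, at -0.06 for MRPL and -0.08 for MRPS.

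Summed over genes, MRPL stood at 5248 and 5350 TPM under the Flag label and at 5112 and 5064 TPM under the RNase H1 label. The ratio of the group means was 0.960. MRPS sums were 2629 and 2679 TPM against 2410 and 2509 TPM, a ratio of 0.927. Both sums were lower in each library labelled RNase H1 than in either labelled Flag. The sum of MRPL over that of MRPS was 1.996 and 1.997 in the libraries labelled Flag, 2.12 in RNase H1 replicate 1 and 2.02 in RNase H1 replicate 2. On the log2 scale, the mean of MRPL minus the mean of MRPS was 0.22 and 0.23 under the Flag label and 0.30 and 0.22 under the RNase H1 label. The groups overlap in this measure. The difference between groups, 0.04, rests on RNase H1 replicate 1, without which it was -0.0023.

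**Figure D4:**
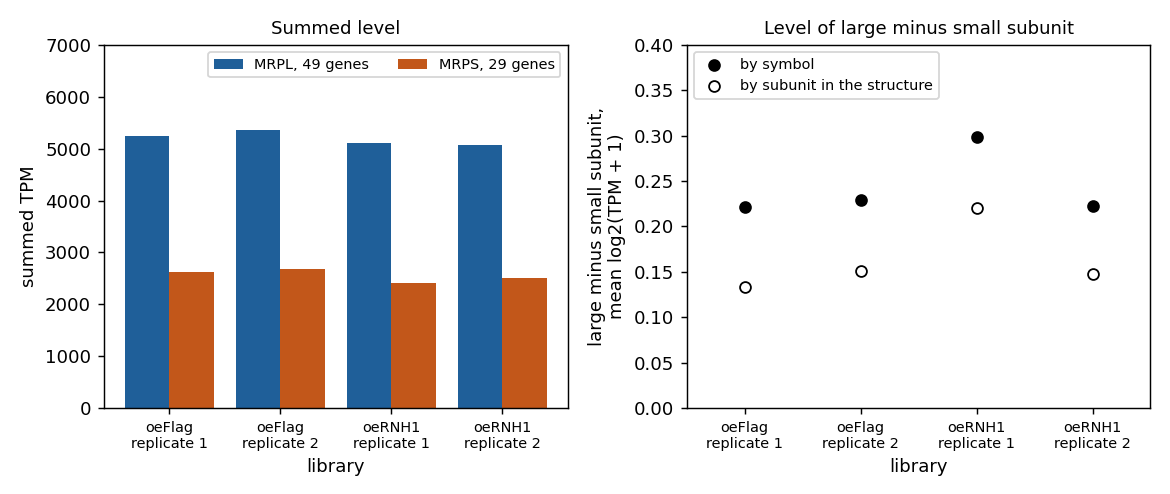
Left, summed TPM (vertical axis, from 0) of MRPL and MRPS genes in each library; right, mean log2(TPM + 1) of large minus small subunit genes in each library, by symbol (filled) and by the subunit that holds the protein (open). Sums are lower in both libraries labelled RNase H1, and in the right panel only RNase H1 replicate 1 (0.30 by symbol) stands apart from the others (0.22 to 0.23).

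The symbols do not always name the subunit that holds the protein. MRPS18A and MRPS30 are proteins of the large subunit despite their symbols, and MRPS36 is a subunit of the oxoglutarate dehydrogenase complex, an enzyme of the citric acid cycle. MRPS18A stood at 59.37 and 61.28 TPM against 59.99 and 57.19 TPM (log2 -0.04 ± 0.06), and MRPS30 at 57.16 and 64.97 TPM against 62.35 and 58.17 TPM (-0.02 ± 0.08). Their groups overlap. MRPS36 stood at 49.68 and 51.48 TPM against 39.65 and 54.64 TPM, with an interval of its log2 fold change from -0.46 to 0.23. With these 3 reassigned, the large subunit had 51 genes, 5 of them called lower (9.80%) and a median of -0.06. The small subunit had 26 genes, 1 of them called lower (3.85%) and a median of -0.08. Calls on the lower side made up 5.54% of all tested genes.

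MRPS18A, MRPS18B and MRPS18C are all related by sequence to 1 protein of the bacterial small subunit, whose place MRPS18C takes. They differed in level and in spread. MRPS18B was at 111.55 and 110.52 TPM under the Flag label and at 96.79 and 100.03 TPM under the RNase H1 label (log2 -0.17 ± 0.05, adjusted p = 0.0675). MRPS18C was at 158.49 and 174.09 TPM against 121.23 and 173.08 TPM. Its groups overlap, and its gap of 0.51 on the log2 scale between the replicates labelled RNase H1 was the widest between replicates of any member. Exons of ABRAXAS1 on the opposite strand overlap 40.2% of the MRPS18C exon length, and the sources used here do not say whether counting used strand. The next widest gaps were those of MRPS36 (0.46), MRPL34 (0.38), MRPL30 (0.35) and MRPL52 (0.33).

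By origin, members were split into proteins that match a bacterial ribosomal protein in place and proteins that do not, and MRPS18A and MRPS18B were counted among the latter. Calls made up 5.54% lower and 6.30% higher of all tested genes, so few or no calls are to be seen in classes this small. Without overlap, 29.4% of all tested genes were lower and 31.3% higher. At an unadjusted p under 0.05, 2370 of 15651 tested genes were lower and 2536 higher. The 30 large-subunit proteins with a bacterial counterpart had 5 genes called lower, with 8 lower and 2 higher at an unadjusted p under 0.05. In them 17 genes were lower and 3 higher without overlap, and the median was -0.08. The 21 large-subunit proteins without one had 0 calls by limma, with 3 lower and 0 higher at an unadjusted p under 0.05. In them 6 genes were lower and 6 higher without overlap, and the median was -0.01. In the small subunit the 16 proteins with a counterpart had 1 call, with 4 lower and 0 higher at an unadjusted p under 0.05. In them 8 genes were lower and 1 higher without overlap, and the median was -0.07. The 10 without a counterpart had 0 calls by limma, with 4 lower and 0 higher at an unadjusted p under 0.05. In these 10 genes 7 were lower and 0 higher without overlap, and the median was -0.12. With MRPS18A and MRPS18B counted as bacterial relatives, a grouping added after seeing the data, the genes lower without overlap were 17 of 31 and 6 of 20 in the large subunit. In the small subunit they were 9 of 17 and 6 of 9. Differences between these classes were not tested. MRPL58, a peptidyl-tRNA hydrolase of the large subunit that frees stalled ribosomes, stood at 64.87 and 67.48 TPM against 69.06 and 67.54 TPM (log2 0.05 ± 0.05, interval from -0.09 to 0.18).

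Regions around the gene starts were read from RefSeq promoter sequences on GRCh38.p14, which matched 69 of the 78 members and run from 250 bases before to 50 bases after the start. The letters CCGGAAG, which ETS factors bind, were found on either strand in 42.0% of the 69 promoters, against 10.7% of 27305 promoters and 18.9% of the promoters of tested genes. The letters AAGATGGC, which YY1 binds, were found in 28.99%, against 3.03% of all promoters and 5.32% of those of tested genes. The letters CGCANGCG, the core that NRF1 binds, a regulator of nuclear genes for mitochondria, were in 18.8% of members and 18.98% of promoters of tested genes. The E-box CACGTG, which MYC and its relatives bind, was in 8.70% and 9.98%, the GC box GGGCGG in 60.9% and 70.6%, and CCAAT in 28.99% and 37.0%. No searched string contains another, though matches of different strings can overlap in position. A match is a description of the sequence and not a measured site.

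The ETS letters were in 40.5% of 42 MRPL promoters and in 44.4% of 27 MRPS promoters. None of the 5 called members with a promoter sequence held them, against 29 of the 64 that were not called, a difference that was not tested. This was not particular to the ETS letters. The NRF1, E-box and CCAAT letters were also in 0 of the 5, against 13, 6 and 20 of the 64. The YY1 letters were in 1 of the 5 and 19 of the 64, and the GC box in 2 and 40. Over all 69 genes the median log2 fold change was -0.07 in the 29 with the ETS letters and -0.07 in the 40 without. With the YY1 letters it was -0.03 in 20 genes and without them -0.07 in 49. Of the windows of 100 bases before the start, 8 hold no exon annotated by GENCODE release 29. They include 2 called members, MRPL11 (chr11:66438849-66438948, minus strand) and MRPL19 (chr2:75646683-75646782, plus strand), and 3 genes with the ETS letters, none of them called. Those 3 are MRPS31 (chr13:40771191-40771290, minus strand), MRPL58 (chr17:75012570-75012669, plus strand) and MRPS18A (chr6:43687792-43687891, minus strand). Windows are set by the RefSeq start, which for MRPL11 lies inside the GENCODE gene (66435075 to 66466738). Its window is therefore not upstream of that gene model. The windows below were chosen for belonging to a called gene or for holding the ETS letters, so a contrast between them cannot be read as a result. The other windows are not shown. Sequences are written from 5′ to 3′ on the strand of the gene, with the ETS letters and the GC box in capitals.
MRPL11: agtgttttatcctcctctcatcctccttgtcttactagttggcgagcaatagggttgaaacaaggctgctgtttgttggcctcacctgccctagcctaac
MRPL19: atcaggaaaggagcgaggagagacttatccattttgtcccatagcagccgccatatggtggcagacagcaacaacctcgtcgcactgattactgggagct
MRPS31: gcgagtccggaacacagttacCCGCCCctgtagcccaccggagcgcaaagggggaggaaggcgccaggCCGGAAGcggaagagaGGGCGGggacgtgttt
MRPL58: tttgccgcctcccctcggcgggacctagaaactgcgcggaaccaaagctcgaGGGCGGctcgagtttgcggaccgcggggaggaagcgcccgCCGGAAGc
MRPS18A: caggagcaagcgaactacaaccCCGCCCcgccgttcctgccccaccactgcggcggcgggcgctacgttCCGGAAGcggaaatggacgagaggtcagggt
In MRPL11 and MRPL19 none of the 6 searched strings occurs in the window. MRPS31, MRPL58 and MRPS18A each hold the ETS letters once, and their log2 fold changes were 0.01, 0.05 and -0.04. These 3 do not stand for the 29 genes with the ETS letters in the promoter, whose median was -0.07.

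Genes whose transcripts are richer in G and C tended to have lower values. Across the 78 genes, which share the same 4 libraries and are not independent replicates, the log2 fold change correlated with the GC content of the longest transcript at r = -0.33 (rho = -0.31). Over 15323 tested genes with a value it was r = -0.19 (rho = -0.22). The GC content of MRPL12 was 64.6%, of MRPL23 61.2% and of MRPL24 54.9%, beside a median of 47.7% over members, whereas MRPL19 had 38.3%. After correction for GC content 8 members were called lower, including all 6, beside 669 lower and 741 higher of all 15651 tested genes. The same correction moved several values that had not passed toward 0 by over 1.5 times. They became -0.15 for MRPL54, -0.11 for MRPL40, -0.06 for MRPL28, -0.19 for MRPS26, -0.13 for MRPS34 and -0.06 for MRPS12. MRPS30 and MRPS36 moved away from 0, to -0.09 and -0.19, and MRPS18A turned to 0.0066. With length corrected as well, MRPS33 moved to -0.19. The correlation with transcript length across members was 0.19 and that with level -0.03.

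Further proteins of the mitochondrial ribosome carry other symbols, and all 5 listed were lower without overlap, beside 29.4% of all tested genes. Only 1 of the 5 was called. The list was chosen with earlier results of these data known, so these counts are a description and not a test. PTCD3, an RNA-binding protein of the small subunit, fell from 109.9 and 104.09 TPM to 88.98 and 89.57 TPM (log2 -0.26 ± 0.05, limma adjusted p = 0.0333). GADD45GIP1 of the large subunit (-0.20 ± 0.06) and CHCHD1 (-0.18 ± 0.07), AURKAIP1 (-0.13 ± 0.05) and DAP3 (-0.07 ± 0.04) of the small subunit did not pass, at adjusted p between 0.0851 and 0.350. The value of GADD45GIP1 was -0.13 after GC correction, and that of AURKAIP1 turned positive after GC correction, with or without length.

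Of 9 genes for assembly of the small subunit and modification of its ribosomal RNA, 3 fell, 0 rose and 6 were not called, with a median of -0.17. Over all tested genes 5.54% were called lower and 6.30% higher, shares that also stand beside the next lists. TFB1M, the methyltransferase that marks the small-subunit ribosomal RNA, stood at 31.85 and 29.88 TPM under the Flag label and at 17.92 and 19.89 TPM under the RNase H1 label. Its fall of 0.68 (SE 0.08, limma adjusted p = 0.0125) was larger than that of any member. RBFA, an assembly factor, fell from 10.43 and 11.93 TPM to 7.56 and 7.25 TPM (log2 -0.53 ± 0.11, adjusted p = 0.0362). METTL17, another assembly factor, fell by 0.21 (SE 0.05, adjusted p = 0.0459), and the GTPase NOA1 stood at -0.18 ± 0.08 (adjusted p = 0.181).

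Of 19 genes for the same steps of the large subunit, 1 fell (5.26%, near the 5.54% of all tested genes), 0 rose and 18 were not called, with a median of -0.04. RPUSD3, of the pseudouridine synthase family, fell from 54.9 to 45.8 TPM (log2 -0.26 ± 0.06, adjusted p = 0.0494), a call that was lost in 10 of 15 alternative settings. RPUSD4, of the same family, had -0.19 ± 0.06 (adjusted p = 0.0919). GTPBP10, an assembly GTPase, and MRM2, a methyltransferase of the large ribosomal RNA, had positive values of 0.33 ± 0.11 and 0.16 ± 0.05 that did not pass (adjusted p = 0.0951 and 0.111).

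Of 19 translation factors and helpers, 2 fell (10.5%, against 5.54% of all tested genes), 1 rose (5.26%, against 6.30%) and 16 were not called, with a median of -0.08. MRRF, the ribosome recycling factor, stood at 80.6 and 81.87 TPM under the Flag label and at 65.86 and 63.02 TPM under the RNase H1 label (log2 -0.33 ± 0.05, limma adjusted p = 0.0218). OXA1L, which inserts new proteins into the inner membrane, fell from 99.96 and 106.16 TPM to 83.67 and 80.18 TPM (-0.33 ± 0.06, adjusted p = 0.0243). MTRF1L, a release factor, was the only gene of these lists that rose, from 32.7 and 33.36 TPM to 40.37 and 40.25 TPM (0.28 ± 0.06, adjusted p = 0.0391). MTRF1L lost its call in 8 of 15 alternative settings, GC correction among them. The elongation factor TUFM was lower at -0.18 ± 0.05 without passing (adjusted p = 0.0575). All 8 calls in these 4 lists were lost on leaving out any 1 library (adjusted p from 0.0878 to 0.213), with no filter and without an intensity trend.

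**Figure D5:**
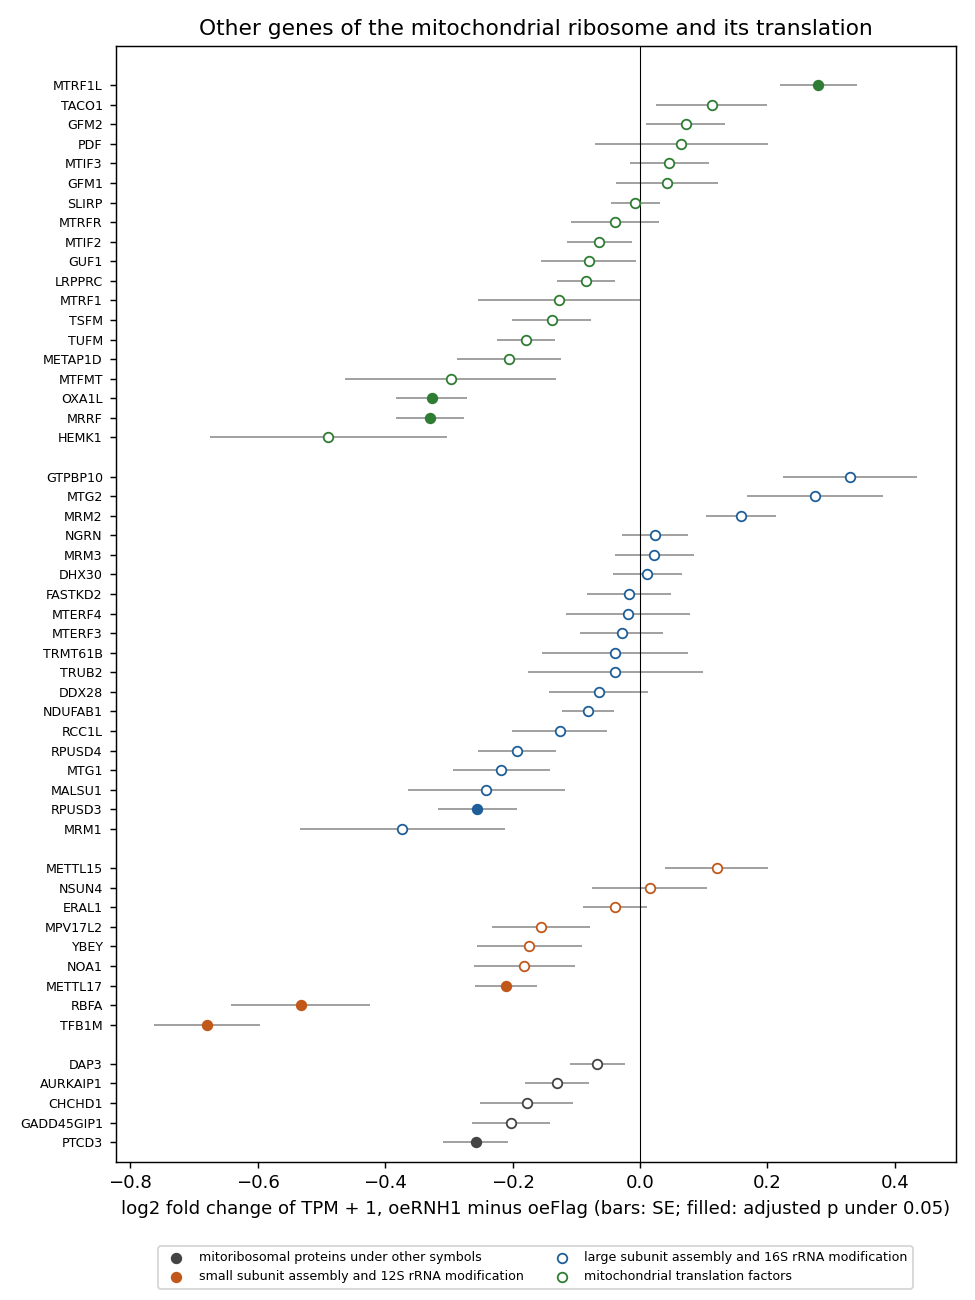
Log2 fold change of TPM + 1 (horizontal axis, libraries labelled RNase H1 minus those labelled Flag, bars give the SE) of 52 further genes in 4 lists, ranked within each list; filled points have an adjusted p under 0.05. The 7 filled points left of 0 include TFB1M at -0.68, and the 1 right of 0 is MTRF1L at 0.28.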

How the data were processed

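RNA from HEK293T cells was measured in 4 libraries, 2 per group, grouped by their titles. Per the submitters' processing notes, STAR and hg38 were used, and the sources used here name no versions, quantifier, annotation or strand setting. The authors deposited 1 table of TPM with a column per library. Rows reaching a mean of 1 TPM (15651) were compared on log2(TPM + 1) with limma 3.58.1 in R 4.3.3 (group term, variances with an intensity trend, two-sided, Benjamini-Hochberg adjustment over all tested genes). The added 1 slightly reduces fold changes. The procedure was tested on simulated data. Gene models, GC content and exon overlaps came from GENCODE release 29, matched by symbol for all 78 members. Exons of 41 members overlap another gene and 36 have a named pseudogene, so their reads may be shared. Genes in the text were RNASEH1, the 10 MRPL and 10 MRPS genes with the smallest p, the highest and lowest of each and 7 genes of special role. All 5 ribosomal proteins under other symbols were added, and up to 4 genes of each other list. MRPS7, MRPL47, MRPS31, MRPL34, MRPL30 and MRPL52 were chosen after their values were seen. Members and lists were chosen with earlier results of these data known. Of the marker genes chosen for the cell line, 1 is not reported here. Assignments to subunits are background knowledge. Figures were drawn with matplotlib 3.10.9. Alternatives were 2 other pseudocounts (0.1 and 5), no filter, median-of-ratios scaling, quantile normalization, a minimum of 5 TPM, variances without trend or robust, a replicate block, leaving out each library, subunits by structure, and, added after seeing the data, corrections for GC content alone or together with length (splines with 4 degrees of freedom).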

Additional observations from a re-analysis of the deposited data

How the results depend on the processing

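Over 15 alternative settings the medians of MRPL and MRPS were negative in all 15, as were the values of the 6 called genes. All 6 calls were held in 8 settings, and 6 settings called no member. MRPL genes called lower were 0 with no filter, 0 without an intensity trend and 0 on leaving out any 1 library, and MRPS genes called lower were 0 in the same settings. On leaving out any 1 library the 6 called genes stayed lower, in fits that share libraries and are not independent. MRPS genes called lower were 6 at a minimum of 5 TPM. They were 2 with quantile normalization, median-of-ratios scaling, robust variances, GC correction, and GC and length correction. In that order, these settings called 859, 976, 921, 669 and 627 of all 15651 tested genes lower. Over all genes, a minimum of 5 TPM called 1239 higher and 1158 lower of 11245. No filter called 267 higher and 147 lower of 38972, and no intensity trend 1 higher and 0 lower of 15651. Leaving out any 1 library also lost nearly all calls over all genes, so these losses are not particular to members. MRPL genes called higher were 1, MRPL27, at a minimum of 5 TPM. The median of MRPL was -0.088 with quantile normalization and -0.062 to -0.031 without 1 library. The median of MRPS was -0.11 with quantile normalization, -0.10 after GC and length correction and -0.13 to -0.049 without 1 library. The difference between groups in MRPL minus MRPS level was -0.0023 to 0.073 without 1 library, negative only without RNase H1 replicate 1. The cause of these shifts was not tested.

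The replicate numbers are not shown to pair the libraries, since deviations of same-numbered libraries from their group means correlated at 0.03 over tested genes, though at 0.23 over the 78 members. With the replicate block MRPS genes called lower were 5, MRPL genes called higher 1 and lower 7, and over all tested genes 2442 were called, against 1853 without it. RNASEH1 did not pass in any of the 15 settings, with adjusted p from 0.181 to 0.528. Depth is unknown, and 2 libraries per group limit what can be called.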
